A study of Mus musculus with 12 samples.

Results

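Glucocorticoids, in the mouse chiefly corticosterone, are adrenal steroids that follow the day and rise with stress. They enter cells and bind the glucocorticoid receptor, which sits with Hsp90 and its co-chaperones in the cytoplasm until hormone binds, then moves to the nucleus and switches on genes near its binding sites. Oligodendrocytes, the cells that wrap axons in myelin, carry the receptor, and several of its targets are used in many tissues as a record of hormone exposure. The genes described here are 9 such transcripts among the 21937 genes measured in purified brain myelin: Nr3c1, which encodes the receptor itself, and the targets Fkbp5, Tsc22d3, Sgk1, Zbtb16, Hif3a, Pdk4, Plin4 and Sult1a1. They were chosen by their symbols with measured values of these libraries already known, so their levels and differences are given as a description, with no test. All 9 passed the filter for a mean of at least 10, as did 14634 genes in all. The question put to them was whether a common stress-hormone pattern separates the ages.

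Myelin was purified by sucrose density gradient from the brains of male wild-type c57Bl6/N mice aged 18 days (P18), 75 days (P75), 6 months or 24 months. RNA was sequenced as 3 libraries per age, 12 in all, with 20299052 to 27214385 reads on genes per library. No treatment is listed for the animals, and hormone levels and the time of day of sampling are not given in the sources used here. A value is a normalized read count, the reads on a gene divided by the size factor of its library, and is given as mean ± SD with n = 3 per age. In such a preparation fewer cells of a type and less RNA per cell cannot be told apart.

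The libraries held the RNA of mature oligodendrocytes first, and of other cells as well. All 7 mature oligodendrocyte markers were above 0 in every library, with a summed level of 2462617 to 6171887 at P18 and 1266818 to 2363853 at the later ages. Mbp, the main basic protein of compact myelin, took 9.47% to 20.8% of the reads at P18 and 4.76% to 8.48% later. All 7 neuronal, 6 astrocytic, 7 microglial, 9 endothelial and pericyte and 5 choroid plexus and ependymal markers were also above 0 in every library. The summed microglial level was 2905 to 3697 at P18 and 6258 to 7420.1 at 24 months, the endothelial and pericyte level was 998 to 1045 at P18 and 1619 to 1912 at 24 months, and the choroid plexus and ependymal level was 12576 to 14715 at P18 and 42372 to 47019 at 24 months. The members of such lists did not all go one way. Most of the choroid plexus sum was Ttr, with means of 13440 at P18 and 44404 at 24 months, while the ependymal genes Foxj1 (232 and 146) and Ccdc153 (96.6 and 35.9) had lower means at 24 months. Vtn of pericytes had means of 331 and 1017, while the endothelial Cldn5 had 186 and 133. Of 3 red blood cell markers, both hemoglobin genes were listed at 0 in every library, and Alas2 was at 362 to 472 at P18 and at 29.2 to 57.7 later, so that it was higher at P18 as Hif3a, Fkbp5, Tsc22d3 and Sult1a1 were. The zeros of the hemoglobin genes were not checked and are not read as absence of blood RNA. The part of these other cells in the results was not tested.

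From the set 3 promoters are shown, because they hold the letters of a glucocorticoid receptor half-site and belong to transcripts with wide age differences. The receptor binds as a dimer to inverted half-sites, here searched as TGTTCT on either strand (AGAACA on the other), alone or as an inverted pair 3 bases apart. The windows are the 250 bases before a RefSeq transcript start on GRCm38.p6, 5′ to 3′ on the strand of the gene, with half-sites in capitals. They are chr10:21993640-21993889 on the + strand for Sgk1, chrX:140600523-140600772 on the - strand for Tsc22d3 and chr7:126676419-126676668 on the - strand for Sult1a1.
Sgk1: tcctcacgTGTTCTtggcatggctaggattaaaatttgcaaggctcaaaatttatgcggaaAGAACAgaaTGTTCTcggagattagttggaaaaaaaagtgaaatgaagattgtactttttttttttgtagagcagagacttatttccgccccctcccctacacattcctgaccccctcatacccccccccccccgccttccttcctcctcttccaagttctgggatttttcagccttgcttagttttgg
Tsc22d3: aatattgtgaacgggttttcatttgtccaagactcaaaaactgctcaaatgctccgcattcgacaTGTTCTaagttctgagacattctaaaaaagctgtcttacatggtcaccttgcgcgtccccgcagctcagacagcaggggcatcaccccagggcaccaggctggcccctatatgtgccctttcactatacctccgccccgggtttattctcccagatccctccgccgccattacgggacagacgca
Sult1a1: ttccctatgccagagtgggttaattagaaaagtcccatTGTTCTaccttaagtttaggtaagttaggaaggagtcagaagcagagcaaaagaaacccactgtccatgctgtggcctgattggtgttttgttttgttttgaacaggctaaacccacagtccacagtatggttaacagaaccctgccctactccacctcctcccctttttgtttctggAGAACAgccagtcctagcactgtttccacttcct
The Sgk1 window holds 3 half-sites, of which the last 2 form the inverted pair, starting 189 bases before the transcript start. The Tsc22d3 window holds 1, starting 185 bases before it, and the Sult1a1 window holds 2, starting 212 and 34 bases before it. Promoters were given for 7 of the 9 genes, with 14 windows, since Sgk1 and Tsc22d3 have several starts. At least 1 half-site was in 5 of the 14 windows (35.7%) and in 5284 of all 32851 windows of this length (16.1%). By gene, 3 of the 7 held one, against 18.2% of 27025 genes. Among the other induced genes compared further on, 2 of the 27 with a promoter held one and none an inverted pair. The inverted pair was in 3 of the 32851 windows (0.00913%), one of them the Sgk1 window. No half-site was in the windows of Hif3a, Fkbp5, Pdk4 or Plin4, and receptor sites far from a start are outside this search. A match is a run of letters, not a shown binding site.

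Nr3c1, the receptor gene, differed little with age. Its normalized read count was 2336, 2152 and 1725 in P18 replicates 1, 2 and 3, 2495, 2431 and 2647 at P75, 2247, 2093 and 2249 at 6 months, and 1815, 2062 and 1991 at 24 months. Every P75 library was above every other library, and P18 overlapped with both 6 and 24 months. The means were 2071 ± 314, 2524 ± 111, 2196 ± 89.5 and 1956 ± 127, so the highest age was 1.29-fold above the lowest. The log2 difference from P18 to P75 was 0.30 (SE 0.10) and was 0.17 without P18 replicate 3, the lowest P18 library. From P75 to 6 months it was -0.20 and from 6 to 24 months -0.17, both with the same SE.

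The best known readouts of receptor activity, Fkbp5 and Tsc22d3, were highest at P18 and lowest at 6 months. Fkbp5 encodes a co-chaperone of the Hsp90 complex that lowers the affinity of the receptor for hormone. Its count was 1122, 1314 and 1938 at P18, 593, 777 and 679 at P75, 492, 458 and 485 at 6 months, and 734, 564 and 589.65 at 24 months. All P18 libraries were above all others and all 6-month libraries below all others, while P75 and 24 months overlapped. The means were 1458 ± 426, 683 ± 91.9, 478 ± 18.005 and 629 ± 91.6. The log2 differences were -1.06 in the first step, -0.50 in the next and 0.39 in the last, from 6 to 24 months (SE 0.16).

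Tsc22d3 encodes GILZ, a leucine zipper protein that carries part of the anti-inflammatory action of glucocorticoids. It counted 7245, 7559 and 6621 at P18, 4232, 5076 and 5194 at P75, 1932, 2258 and 2278 at 6 months, and 2983, 2766 and 2566 at 24 months. No libraries of any pair of ages overlapped. The means were 7142 ± 477, 4834 ± 525, 2156 ± 194 and 2772 ± 209, with log2 differences of -0.57, -1.16 and 0.36 in the consecutive steps (SE 0.10). P18 was thus 3.31-fold above 6 months. Per kilobase of exon Tsc22d3 had the highest level of the 9 genes, with a mean of 973 normalized reads over the 12 libraries, followed by Sgk1 with 778, Sult1a1 with 337, Nr3c1 with 295 and Fkbp5 with 129. Pdk4 had 75.9, Plin4 35.5, Zbtb16 17.6 and Hif3a 15.7.

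Hif3a and Sult1a1 had the same age order as Fkbp5 and Tsc22d3, with wider differences. Hif3a encodes a member of the hypoxia-inducible factor family. It counted 164, 176 and 219 at P18, 130.3, 134 and 145 at P75, 27.6, 28.4 and 22.4 at 6 months, and 110.0, 53.0 and 50.9 at 24 months. Here too no pair of ages overlapped, although the 6-month values rest on only 23 to 34 reads. The means were 186 ± 28.9, 137 ± 7.49, 26.1 ± 3.27 and 71.3 ± 33.5, a range of 7.13-fold and the widest of the 9 genes. The log2 difference from P75 to 6 months was -2.35 and that from 6 to 24 months 1.33 (SE 0.23), or 0.97 without 24-month replicate 1.

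Sult1a1 encodes a sulfotransferase for phenols and catecholamines. It counted 648, 721 and 1630.2 at P18, 327, 549.8 and 527 at P75, 161, 191 and 169 at 6 months, and 504, 385 and 288 at 24 months. P18 and 6 months stood apart from all other ages, and P75 and 24 months overlapped. The means were 999.6 ± 547, 468 ± 123, 174 ± 15.5 and 392 ± 108, a range of 5.76-fold, with log2 differences of -1.001, -1.39 and 1.14 (SE 0.28). Without P18 replicate 3 the first of these was -0.58. In the annotation the gene Ccdc101 on the opposite strand overlaps exons of Sult1a1 (chr7:133816379-133819946, - strand, NCBIM37). Whether exons of Ccdc101 lie over them was not looked up. Whether the counting used strand is not given in the sources used here. Without strand, reads on any exon bases shared by such partners cannot be told apart.

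Sgk1 and Plin4 had their high values at P75 and 24 months instead. Sgk1 encodes a kinase that controls ion channels and transporters. It counted 2785, 2968 and 3643 at P18, 4279, 6372 and 6232 at P75, 2027, 2391 and 2482 at 6 months, and 6304, 4164 and 2113 at 24 months. The P75 libraries were above all of P18, and those of P18 above all of 6 months. The 24-month libraries spread from within the 6-month range to within the P75 range. The means were 3132 ± 452, 5628 ± 1170.1, 2300.2 ± 241 and 4194 ± 2095. The log2 differences were 0.83, -1.27 and 0.73 (SE 0.27), and the last was 0.37 without 24-month replicate 1 and 1.16 without 24-month replicate 3.

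Plin4 encodes perilipin 4, a coat protein of lipid droplets. It counted 26.1, 42.9 and 137 at P18, 141, 426 and 322 at P75, 83.7, 150.0 and 73.0 at 6 months, and 556, 281 and 217 at 24 months. The libraries of P18 and 6 months overlapped, as did those of P75 with 6 and 24 months, and replicates of one age differed by up to 5.23-fold at P18. The means were 68.6 ± 59.5, 296 ± 144, 102 ± 41.7 and 351 ± 180.1, and the log2 differences of 2.30, -1.46 and 1.73 had the largest SE of the set (0.50). The gene Hdgfrp2 on the opposite strand overlaps exons of Plin4 (chr17:56240014-56249225, - strand, NCBIM37), so the limits given for Sult1a1 hold here as well.

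Zbtb16 followed neither course, and Pdk4 had the age order of Plin4 by its means, over a range of only 1.24-fold. Zbtb16 encodes PLZF, a zinc finger repressor. It counted 114, 137 and 118 at P18, 62.1, 60.3 and 33.2 at P75, 92.6, 85.2 and 80.8 at 6 months, and 108, 78.9 and 108 at 24 months. Its lowest age was P75, whose libraries were below all others, and only 6 and 24 months overlapped. The means were 123 ± 12.2, 51.9 ± 16.2, 86.2 ± 5.99 and 98.4 ± 16.9, with log2 differences of -1.28, 0.77 and 0.18 (SE 0.21). The second of these was 0.49 without P75 replicate 3, and the third lay between 0.10 and 0.33 with single libraries of 24 months left out.

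Pdk4 encodes a kinase that shuts down pyruvate dehydrogenase and so keeps pyruvate out of the citric acid cycle. It counted 251, 238 and 229 at P18, 228, 285 and 287 at P75, 253, 300.02 and 234 at 6 months, and 301, 316 and 276 at 24 months. Only P18 and 24 months did not overlap. The means were 239 ± 10.9, 267 ± 33.3, 262 ± 34.2 and 298 ± 20.2, and the log2 differences were 0.15, -0.03 and 0.19 (SE 0.12). The second of these turned to between 0.02 and 0.05 when P75 replicate 2, P75 replicate 3 or 6-month replicate 3 was left out, and single libraries moved the other 2 by over 1.5 times.

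**Figure D1:**
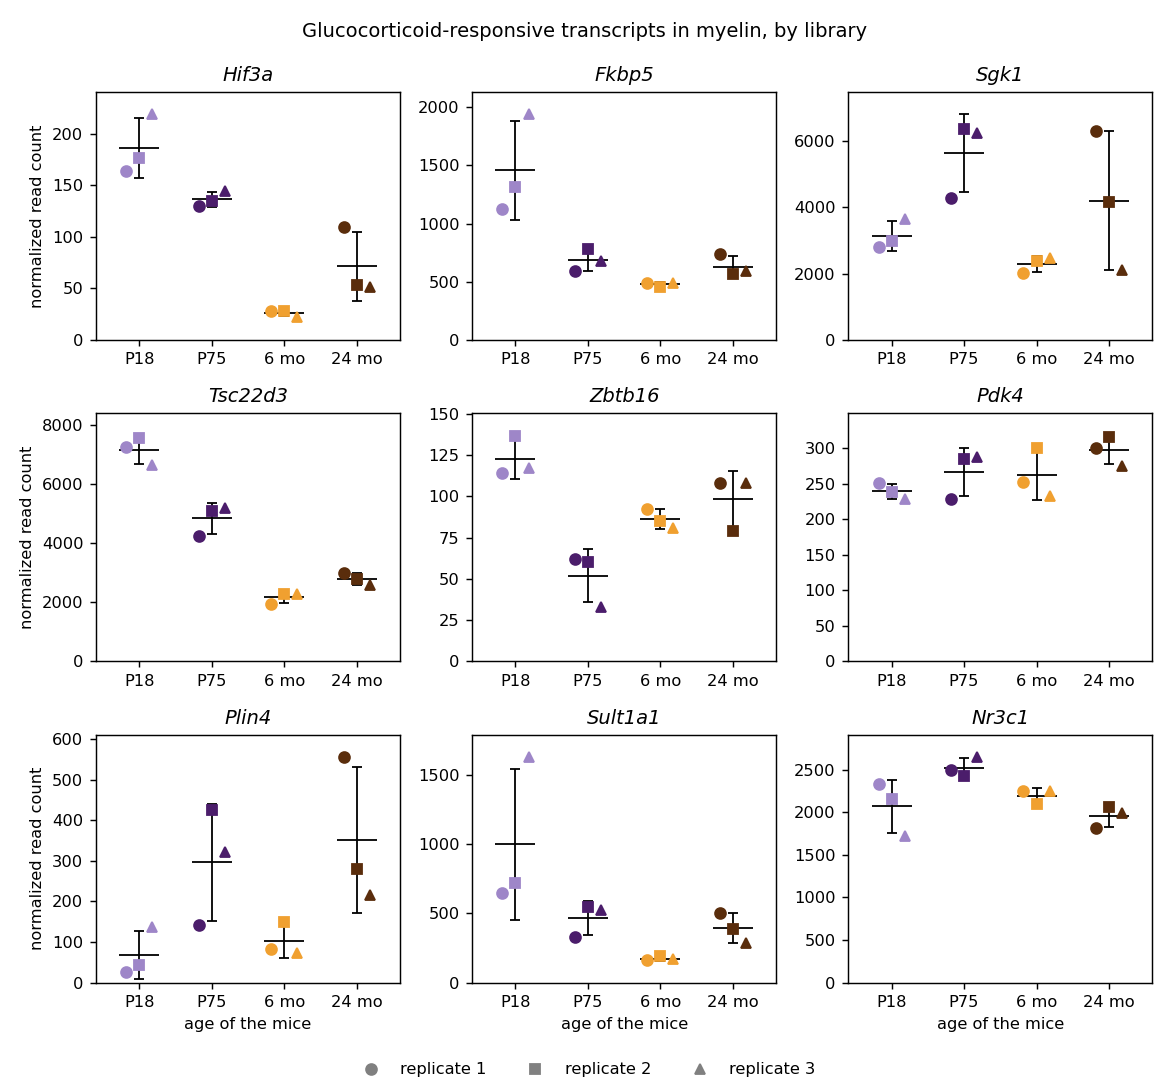
Normalized read count (vertical axes, each starting at 0) of the 9 genes in each library, by age of the mice. Symbols are the 3 replicates, horizontal lines the mean and bars the SD. Hif3a, Fkbp5, Tsc22d3 and Sult1a1 are highest at P18 and lowest at 6 months, while Plin4 and Pdk4 are highest at 24 months and Nr3c1 spans 1.29-fold.

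Across the set no single age order held. By their means, 4 of the 9 genes (Hif3a, Fkbp5, Tsc22d3 and Sult1a1) ran from P18 through P75 and 24 months down to 6 months, an order that 11.8% of all tested genes also had. Sgk1 ran from P75 through 24 months and P18 to 6 months, Zbtb16 from P18 through 24 and 6 months to P75, Pdk4 and Plin4 from 24 months through P75 and 6 months to P18, and Nr3c1 from P75 through 6 months and P18 to 24 months. The feature that most of them had in common was a 6-month mean below both P75 and 24 months. It was found in 7 of the 9 genes, all but Zbtb16 and Nr3c1, and in 35.2% of all tested genes. For Pdk4 it rested on P75 and 6-month means of 267 and 262, and the sign turned with some single libraries left out. Libraries of all 6 pairs of ages were apart for 2 genes, Hif3a and Tsc22d3, against 6.65% of tested genes, and for 1 pair for Pdk4.

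By step, the P75 libraries were all above those of P18 for 3 of the 9 genes and all below for 5, against 25.1% and 22.6% of tested genes. From P75 to 6 months 1 gene was all above and 6 all below, against 32.1% and 30.9%. From 6 to 24 months 5 were all above and 1 all below, against 23.2% and 20.3%. The median log2 difference of the 9 genes was -0.44, -1.16 and 0.39 in these steps, where that of all tested genes was 0.02, 0.01 and 0.03. Since the genes were picked with these differences known, nothing is read from the shares. Scaling the libraries to the same total shifted the median of all genes from P18 to P75 to 0.14 and changed the sign of no difference of the 9 genes.

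Within an age the same libraries were high or low for several of the targets. At 24 months replicate 1 was the highest of the 3 libraries for 6 of the 9 genes, whereas it was highest for 30.8% of all tested genes. Its log2 deviation from the age mean was 0.78 for Plin4, 0.72 for Sgk1, 0.71 for Hif3a, 0.40 for Sult1a1, 0.23 for Fkbp5 and 0.11 for Tsc22d3. Replicate 3 of that age was the lowest for 6 genes, with -0.85 for Sgk1 and -0.58 for Plin4, and lowest for 30.4% of all genes. At P75 replicate 1 was the lowest for 7 of the 9, with -0.92 for Plin4 and -0.48 for Sult1a1, and lowest for 33.4% of all genes.

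At P18 the set split. Replicate 3 was highest for Hif3a, Fkbp5, Sgk1, Plin4 and Sult1a1, by 0.23 to 1.33 above the age mean on the log2 scale, and lowest for Tsc22d3, Pdk4 and Nr3c1. It was highest for 44.0% of all genes. P18 replicate 3 also had the lowest mature oligodendrocyte level of its age (2462617, against 4197344 and 6171887), the lowest Mbp share (9.47%) and the highest neuronal level (176533, against 152718 and 141383). Its microglial level (2905, against 3697 and 3513) and astrocytic level (88762, against 107672 and 107132) were the lowest of that age. At 24 months replicate 1 had the highest mature oligodendrocyte level of its age (2055141, against 1728965 and 1445741) and the lowest microglial level (6258, against 7031 and 7420.1). Its astrocytic level was also the lowest of that age (83088, against 89289 and 89768). The part of these differences in the values of the 9 genes was not tested. Libraries were prepared from different mice, and what set single mice apart is not given in the sources used here.

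**Figure D2:**
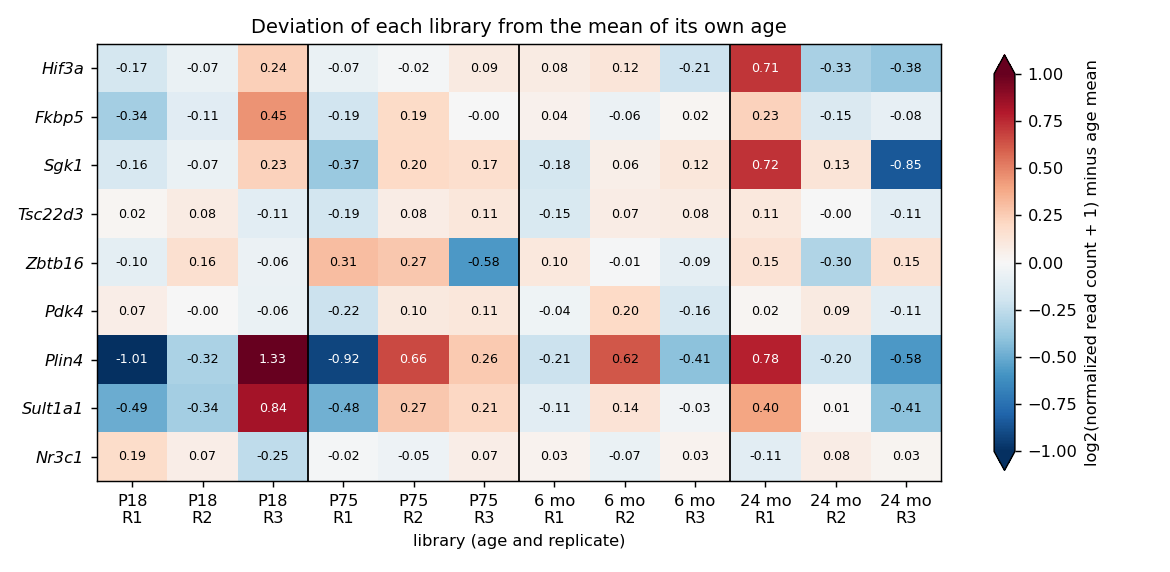
Log2(normalized read count + 1) of each library minus the mean of its age, for the 9 genes (lines of the map) and the 12 libraries (columns, R1 to R3 are replicates). The scale of colours ends at -1 and 1, and the numbers are the deviations: Plin4 runs from -1.01 to 1.33 at P18, and most targets are above 0 in 24-month replicate 1 and below 0 in P75 replicate 1.

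Other transcripts of the pathway are described with 3 further lists. These hold 32 other genes known to be induced by glucocorticoids, 18 genes of the receptor complex and of hormone handling, and 10 genes known to be repressed. Age groups were compared with limma, and a gene is said to have risen or fallen at a Benjamini-Hochberg adjusted p under 0.1. Log2 differences are on the scale of log2(normalized read count + 1). Like the genes described above, the lists were chosen with earlier results of these data known. The rises, falls, shares, age orders and adjusted p of their genes are therefore given as a description. Whether the pathway as a whole followed the targets was not tested.

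From P18 to P75 the other induced genes fell more often than they rose. Of 32 genes 12 fell and 4 rose, where 22.9% of all tested genes fell and 25.9% rose, and the list median was -0.19. With libraries scaled to the same total 7 fell and 5 rose, where of all genes 1827 fell and 4739 rose instead of 3354 and 3783. With P18 replicate 3 and 24-month replicate 1 left out 9 fell and 6 rose, where of all genes 3461 fell and 3960 rose. The cell cycle inhibitors led the falls. Cdkn1a fell from 879 ± 215 to 341 ± 70.8 (log2 -1.36, limma adjusted p = 1.01e-05), and Cdkn1c from 406 ± 50.0 to 201 ± 13.5 (log2 -1.01, limma adjusted p = 2.22e-05). Ddit4, a stress-induced inhibitor of mTORC1, fell from 2387 ± 754 to 1229.8 ± 189 (log2 -0.92, limma adjusted p = 0.000774). Among the risers Arl4d, a small GTPase, had a log2 difference of 0.77 (limma adjusted p = 0.00574), the cell surface proteoglycan Sdc4 one of 0.52 (limma adjusted p = 0.000322) and Tob2, an antiproliferative protein, one of 0.42 (limma adjusted p = 0.0247). The call of Tob2 was lost without P18 replicate 1 (log2 0.27, adjusted p = 0.134) or replicate 2 (adjusted p = 0.104), and its difference was 0.64 without replicate 3.

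From P75 to 6 months 15 of the 32 fell and 5 rose, where 29.4% and 31.2% of all genes did, and the list median was -0.33. The metallothioneins, metal-binding proteins that also respond to metals and oxidative stress, fell the most. Mt2 went from 12402 ± 2413 to 2335 ± 436 (log2 -2.41, limma adjusted p = 1.35e-07) and Mt1 from 19483 ± 3599 to 4634 ± 968 (log2 -2.08, limma adjusted p = 4.17e-07). Nfkbia, the inhibitor that holds NF-kB in the cytoplasm, fell from 1093 ± 211 to 454 ± 40.8 (log2 -1.25, limma adjusted p = 6.83e-06). Against this, Klf9, a transcription factor induced by glucocorticoids and thyroid hormone, rose from 457 ± 141 to 1167 ± 120.1 (log2 1.39, limma adjusted p = 3.30e-06). Irs2, an adaptor of the insulin receptor, rose from 20.6 ± 5.88 to 146 ± 32.6 (log2 2.78, limma adjusted p = 6.07e-06), and the phagocytic receptor Mertk by 0.43 on the log2 scale (limma adjusted p = 0.00576). The remaining risers were the clock gene Per1 and Sesn1.

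From 6 to 24 months 7 of the 32 rose and 3 fell, where 16.6% and 12.7% of all genes did, with a list median of 0.08. Mt2 rose to 4659 ± 1223 (log2 0.98, limma adjusted p = 0.00307), Mt1 to 8455 ± 1734 (log2 0.87, limma adjusted p = 0.00551) and Mfsd2a, a lipid transporter of the blood-brain barrier, from 420 ± 8.49 to 629.5 ± 91.2 (log2 0.57, limma adjusted p = 0.0105). Irs2 fell back to 37.8 ± 14.8 (log2 -1.97, limma adjusted p = 0.00178) and Klf9 to 693 ± 83.8 (log2 -0.75, limma adjusted p = 0.00503). Gpd1, a glycerol phosphate dehydrogenase of oligodendrocytes, fell from 1939 ± 173 to 1559.7 ± 74.8 (log2 -0.31, limma adjusted p = 0.0313), a call that was lost without 6-month replicate 2 or 24-month replicate 2. Lcn2, an iron-binding protein of inflammation, lay outside the rule for named genes and is given because it had the largest difference of the list (log2 4.01, limma adjusted p = 0.00223). It went from a mean of 3.22, on 1 to 6 reads per library, to 25.8 to 211 in the 24-month libraries.

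By age order, 10 of the 32 other induced genes ran from P18 through P75 and 24 months to 6 months, against 11.8% of all tested genes, and 17 of the 32 had a 6-month mean below both P75 and 24 months, against 35.2%. Klf9 and Irs2 did the opposite of Fkbp5 and Tsc22d3 at 6 months, with their highest means there. Per1, Dusp1 and Sesn1 also had their highest means at 6 months, which makes 5 of the 32, against 22.5% of all tested genes.

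**Figure D3:**
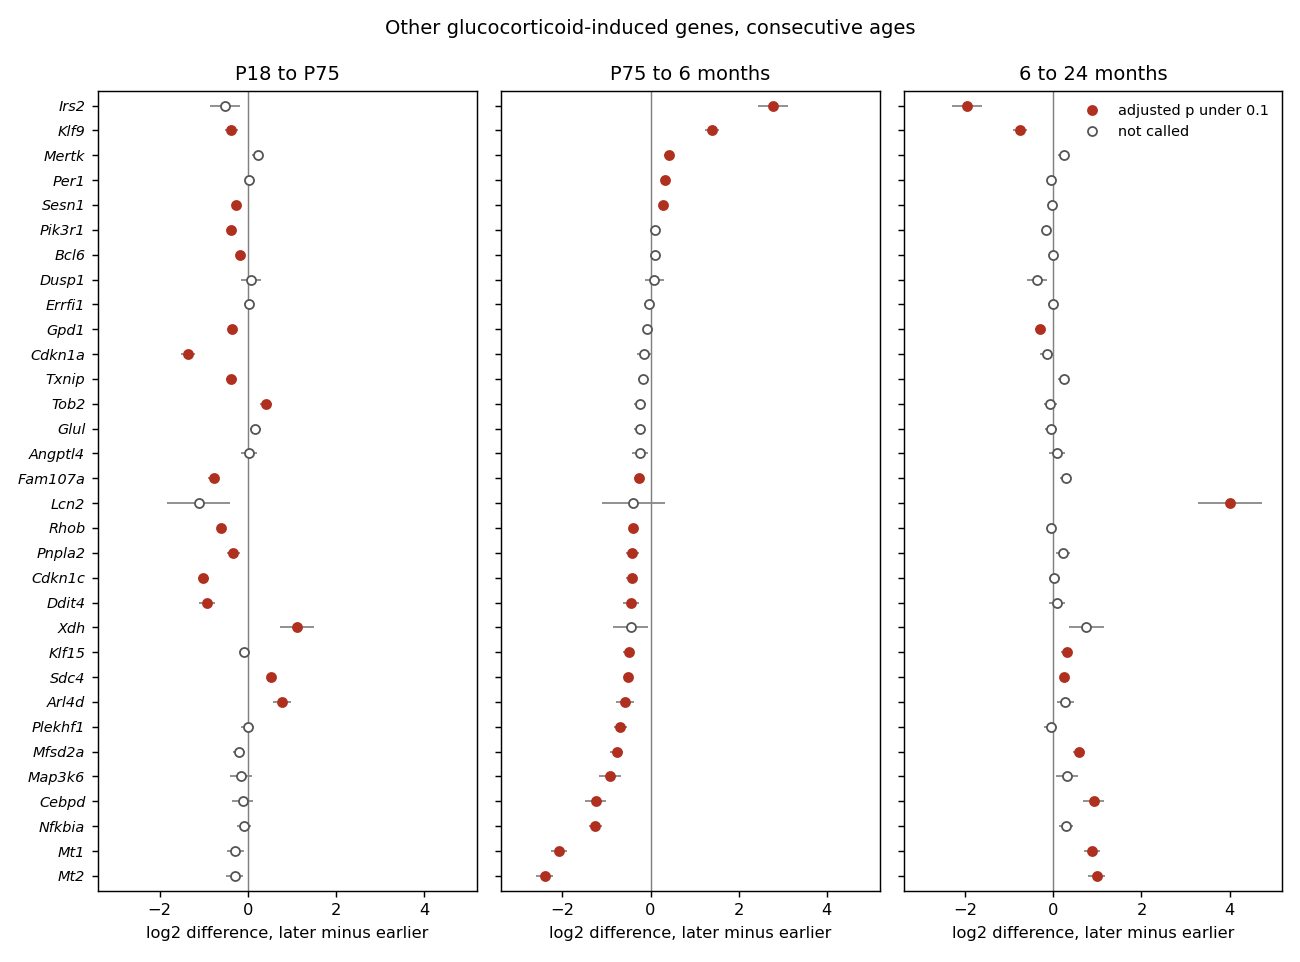
Log2 difference between consecutive ages (later minus earlier, bars are SE from limma) for the 32 other glucocorticoid-induced genes, ordered by the step from P75 to 6 months. Filled points passed an adjusted p of 0.1: from left to right 12 fell and 4 rose, 15 fell and 5 rose, and 3 fell and 7 rose.

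Replicate 3 was the highest library of P18 for 25 of the 32 genes (78.1%) and replicate 1 the highest of 24 months for 21 (65.6%), where 44.0% and 30.8% of all genes were. Replicate 1 was the lowest library of P75 for 20 of the 32 (62.5%). Of the 17 receptor and hormone-handling genes 7 were highest in P18 replicate 3 and 2 in 24-month replicate 1. This list had a skewed library of its own: 12 of the 17 (70.6%) were highest in 6-month replicate 1, against 36.7% of all genes. All lists were read in the same libraries, and the size of these within-age differences was not tested.

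**Figure D4:**
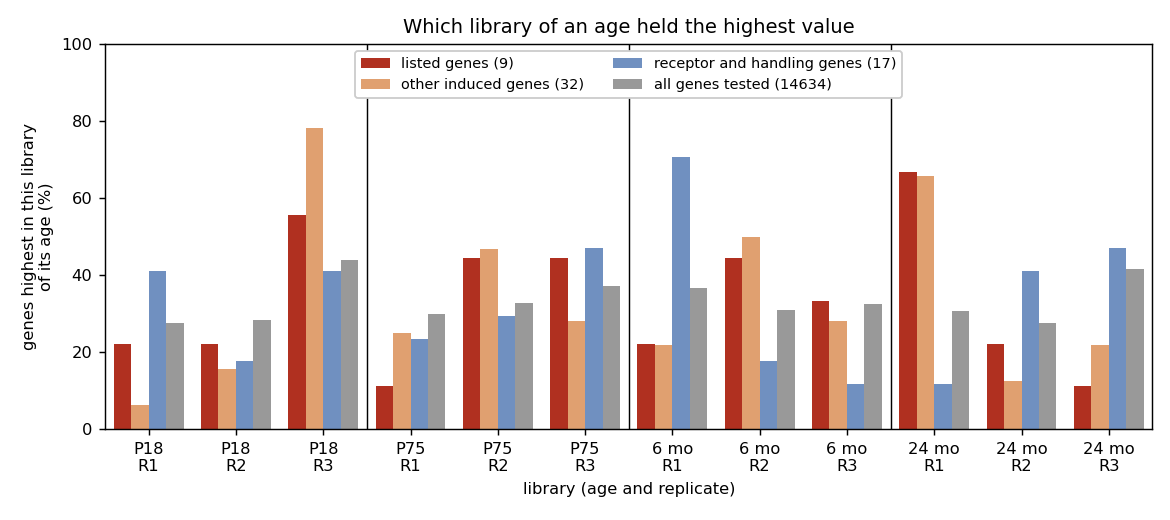
Share of genes (vertical axis, percent) whose highest value within an age was in the given library, for the 9 genes, the 32 other induced genes, the 17 tested receptor and hormone-handling genes and all 14634 genes tested. In 24-month replicate 1 the share is 66.7% for the 9 genes and 65.6% for the other induced genes, against 30.8% of all genes. In P18 replicate 3 it is 78.1% for the other induced genes, against 44.0%.

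The genes that receive and handle the hormone rose more often than they fell from P75 to 6 months. Of the 18, all but Hsd11b2 passed the filter on low values. From P75 to 6 months 9 of 17 rose and 3 fell, where 31.2% and 29.4% of all genes did, with a list median of 0.25. Without 6-month replicate 1 only 5 rose and 3 fell, where of all genes 3977 rose and 3731 fell. Nr3c2, the mineralocorticoid receptor, which binds corticosterone with higher affinity than Nr3c1 does, rose from 80.4 ± 12.02 to 302 ± 50.8 (log2 1.90, limma adjusted p = 1.89e-07). The Hsp90 co-chaperones Stip1 (log2 0.52, limma adjusted p = 0.00300) and Fkbp4 (log2 0.51, limma adjusted p = 0.000882) rose. Bag1, a co-chaperone of Hsp70, fell by 0.69 on the log2 scale (limma adjusted p = 0.00122), as did Ptges3, the p23 co-chaperone, by 0.53 (limma adjusted p = 0.000894) and the coactivator Ncoa2 by 0.36 (limma adjusted p = 0.00151).

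From P18 to P75 4 of the 17 rose and 3 fell, where 25.9% and 22.9% of all genes did, with a list median of 0.04. Srd5a1, a steroid reductase that inactivates corticosterone and makes neurosteroids, fell from 1864 ± 637 to 222 ± 18.5 (log2 -3.01, limma adjusted p = 3.17e-08). Hsd11b1, the enzyme that regenerates active corticosterone inside cells, rose from 628 ± 32.2 to 1285 ± 112 (log2 1.03, limma adjusted p = 1.13e-06). Abcb1a, an efflux pump of the blood-brain barrier that exports steroids, rose by 0.77 (limma adjusted p = 0.000655) and Ncoa2 by 0.29 (limma adjusted p = 0.00904). Stip1 (log2 -0.35, limma adjusted p = 0.0414) and Fkbp4 (log2 -0.31, limma adjusted p = 0.0302) fell, and both calls were lost with libraries scaled to the same total, where 4 rose and 1 fell. The call of Stip1 was also lost without P18 replicate 1 or P75 replicate 3.

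From 6 to 24 months 1 of the 17 rose and 5 fell, where 16.6% and 12.7% of all genes did, with a list median of -0.15, and without 24-month replicate 2 the 6 calls became 3. Nr3c2 fell to 163 ± 4.30 (log2 -0.88, limma adjusted p = 0.00198). Fkbp4 fell by 0.37 (limma adjusted p = 0.0260), a call lost without 24-month replicate 1 or 2. Srd5a1 fell by 0.44 (limma adjusted p = 0.0939) and Ptges3 rose by 0.30 (limma adjusted p = 0.0649). Both of these calls were lost with most single libraries of 6 or 24 months left out.

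Of the 10 genes known to be repressed, Il1b, Il6, Tnf, Ccl2 and Nos2 were under the filter, and 5 were tested. In the 3 steps 2, 1 and 2 of these rose, where 25.9%, 31.2% and 16.6% of all genes did, and 0, 1 and 0 fell, where 22.9%, 29.4% and 12.7% did. Crh, the hypothalamic releasing hormone that glucocorticoids feed back on, rose from 127 ± 13.2 at P18 to 264 ± 35.3 at P75 (log2 1.04, limma adjusted p = 1.60e-05), fell to 153 ± 12.1 at 6 months (log2 -0.78, limma adjusted p = 0.000113) and rose to 263 ± 23.1 at 24 months (log2 0.78, limma adjusted p = 0.00154). Ptgs2, an inducible cyclooxygenase, rose from 85.2 ± 40.3 to 147 ± 22.4 (log2 0.86, limma adjusted p = 0.00756) and to 228 ± 21.9 at 6 months (log2 0.64, limma adjusted p = 0.0308). Crh and Ptgs2 are made by neurons, whose summed marker level spanned 141383 to 176533 at P18, overlapped that with 174750.1 to 200993 at P75, and was 154216 to 165497 later, and the part of neuronal RNA in these values was not tested.

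For the 2 genes with the widest range of age means on the log2 scale, the most similar profiles over the 12 libraries were sought among 11304 genes with a mean of at least 100. The measure of likeness was the root mean square difference of log2 values centred over the libraries, in which 0 is an identical shape. Closest to Hif3a were Mt2 (0.26), Mt1 (0.29), the noncoding RNA Snhg3 (0.45), Sult1a1 (0.47) and Id1 (0.50), where the median of all genes was 1.12. Closest to Sult1a1 were Crybb1 (0.30), Hist3h2ba (0.40), Fkbp5 (0.42), Mt1 (0.42) and Snhg3 (0.43), with a median of 0.95. From P18 to 24 months the means of Mt2, the gene nearest to Hif3a, were 15186, 12402, 2335 and 4659, a course in which 6 months was again the lowest age. All points share the 12 libraries and their depths, and no p is given.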

How the data were processed

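RNA of purified myelin was measured in 12 libraries, 3 at each of 4 ages. Alignment by the authors was to mm9 with TopHat (TopHat2 2.0.8 in the submitters' processing notes, which also list SAMtools 0.1.19). Reads were assigned to genes with HTSeq 0.5.4p1. The signal the authors deposited is the count after division by a size factor from DESeq, without correction for length. Whole reads were recovered for 100% of the values (tolerance 0.1 read), which says less for 3 libraries in which 1 read was worth 0.991 to 1.004, close to 1. Reads from overlapping genes could have been shared or lost in the counting.

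Ages were compared with limma 3.58.1 (R 4.3.3) in 1 fit over the 12 libraries on a log2 scale with a pseudocount of 1. Genes with a mean under 10 were left out, which kept 14634. P-values set the difference between age means against the spread of libraries within an age, pooled over the 12 libraries. An exact permutation p of 3 against 3 libraries cannot go below 0.1. On the recovered reads edgeR 4.0.16 called 7080, 8948 and 4585 genes in the 3 consecutive steps, and limma 7137, 8865 and 4287. The scripts were tested on simulated data. Replicates of an age differed by more than the sampling noise of their reads, and none was a repeat of another. Libraries with the same replicate number come from different mice. Their deviations correlated with r of -0.15 to -0.03 from P18 to P75, 0.10 to 0.19 from P75 to 6 months and -0.21 to -0.06 from 6 to 24 months.

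The 9 genes and the lists were chosen with earlier results of these data known. All 9 are named. From each list up to 3 called genes with the largest rise and 3 with the largest fall per step are named, with a mean of at least 100 at 1 of the 2 ages. For the 2 members with the widest range, the 5 nearest profiles are given. Gene positions are from GENCODE vM1 on NCBIM37 and promoters from RefSeq on GRCm38.p6, and coordinates of the builds were not mixed. A promoter of Zbtb16 was not used here. Other settings tried were pseudocounts of 0.5 and 10, all genes or those with a mean over 100, only the 2 ages, a replicate block, the same total per library with or without Mbp, quantile normalization, edgeR, DESeq2 1.42.0, a false discovery rate of 0.05 and each library left out. Leaving out both P18 replicate 3 and 24-month replicate 1 was added after seeing the data.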

Additional observations from a re-analysis of the deposited data

How the results depend on the processing

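Of 645 recomputed differences of the 9 genes 643 moved by less than 1 SD between replicates, both others being Hif3a from 6 to 24 months, which was 1.33 and became 0.97 without 24-month replicate 1. Many of the 645 could not move, so these counts say little about stability. A difference is the same by construction when a library of another age is left out. It is also fixed under another filter, with only the 2 ages and with the replicate block. Leaving out 1 library moved 19 values by over 1.5 times, among them Sgk1 from 6 to 24 months (0.73, then 0.37 or 1.16), Sult1a1 from P18 to P75 (-1.001, then -0.58) and Zbtb16 from P75 to 6 months (0.77, then 0.49), with the rest in Zbtb16, Pdk4 and Nr3c1. The sign turned in 3 values, all of Pdk4 from P75 to 6 months. For the lists, the number of called genes stayed within 1.5 times under all alternatives except for the receptor and hormone-handling genes from 6 to 24 months, where 6 became 3 without 24-month replicate 2. With each library left out in turn, the other induced genes called were 11 to 16, 17 to 22 and 7 to 13 in the 3 steps, and the receptor and hormone-handling genes 6 to 9, 8 to 13 and 3 to 9. With the replicate block these counts were 15, 20 and 9, and 7, 11 and 6, against 16, 20 and 10, and 7, 12 and 6 without it. In the step from P75 to 6 months every same-numbered pair of libraries correlated above 0.1, and the block ended no call of a named gene in any step. Of the 973 recomputed values of the named list genes 29 lost their call, those of Tob2, Gpd1, Stip1, Fkbp4, Ptges3 and Srd5a1, and none reversed. Of all genes called from P18 to P75, 3783 rose and 3354 fell, and with libraries scaled to the same total 4739 rose and 1827 fell. From 6 to 24 months 2435 rose and 1852 fell, and 1394 rose and 1614 fell with that scaling. Depth limits Hif3a at 6 months, Plin4 at P18 and Zbtb16 at P75, which rest on 22 to 30 reads in their lowest libraries.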
